A study of Rattus norvegicus with 24 samples.

Results

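The genes described here are 10 protein-coding genes of the rat mitochondrial genome, selected by Ensembl gene ID from a table of 23098 gene IDs. They comprise 5 subunits of complex I, namely Mt-nd1 (ENSRNOG00000030644), Mt-nd2 (ENSRNOG00000031033), Mt-nd4 (ENSRNOG00000029707), Mt-nd5 (ENSRNOG00000029971) and Mt-nd6 (ENSRNOG00000029042). Complex III is represented by Mt-cyb (ENSRNOG00000031766) and complex V by Mt-atp6 (ENSRNOG00000031979). Complex IV is represented by 3 genes, Mt-co1 (ENSRNOG00000034234), Mt-co2 (ENSRNOG00000030371) and Mt-co3 (ENSRNOG00000030700). The table holds IDs without names, so the symbols are those given with the list of IDs. Each of the 10 IDs stood on 1 line of the table, and all 10 passed the filter on low counts. Other mitochondrially encoded genes were not picked out from the table, and the genes' positions and sequences were not analysed here.

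The RNA came from flash-frozen free wall of the left ventricle, taken at mid-ventricular level from male Wistar rats. Sham animals (SHAM) had their dura opened at a high thoracic level with the cord left intact, and their hearts were collected 7 days later. In the SCI groups the spinal cord was completely transected at a high thoracic level, and hearts were collected after 1 day (1d SCI), 3 days (3d SCI) or 12 weeks (12w SCI). Each of the 4 groups had 6 libraries, no injured group had a sham group of its own collection time, and the age of the animals is not given in the sources used here. Transection therefore cannot be told apart from time since surgery, or from any difference in age, in the comparisons with sham. That gap was widest at 12 weeks, set against sham hearts of 7 days. Between injured groups, time after transection and any difference in age cannot be told apart either. No label ties a library to a rat of its own, so p-values measure the spread between libraries.

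The mitochondrial genome is a small circular chromosome present in many copies in each cell, and the proteins it encodes are core subunits of the respiratory chain and of ATP synthase. It is transcribed from both strands as long precursor RNAs that are cut into single messages, so that several genes share a precursor. Of the genes described here, 9 are encoded on one strand and 1, Mt-nd6, on the other. Heart muscle depends on oxidative phosphorylation for its contraction and is dense in mitochondria. The nuclear genes of the respiratory chain and cell type markers were not analysed here, because no table at hand pairs their IDs with names, and the tissue label was therefore not checked against markers.

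Libraries held between 15002476 and 70340174 counts, and the lowest count of any of the 10 genes in any library was 14096, so counting error was small beside the differences between libraries. The library names carry numbers: 3 day and sham libraries hold numbers 57 to 68, whereas 1 day and 12 week libraries hold 77 to 88. The sources used here do not say what a number stands for. The comparisons of 3 days with sham and of 12 weeks with 1 day each lie within a run of numbers. In the other 4 comparisons the run and the group cannot be told apart. Inside a run each group also holds its own block: 57 to 62 at 3 days, 63 to 68 in sham, 77 to 82 at 1 day and 83 to 88 at 12 weeks. The block of numbers and the group therefore cannot be told apart in any comparison.

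The 10 genes together supplied 22.0% to 33.2% of all counts of a library, and over all 6 libraries a group this share overlapped between every pair of groups. In sham hearts the lowest, median and highest shares were 24.7%, 26.7% and 28.7% (mean 26.6% ± 1.57, SD, n = 6). At 1 day they were 24.02%, 26.3% and 29.2% (26.3% ± 2.04, n = 6). At 3 days they were 22.0%, 25.5% and 33.2% (26.8% ± 4.02, n = 6). At 12 weeks they were 22.0%, 23.99% and 29.2% (25.0% ± 2.77, n = 6). Both the highest and the lowest library of the study were 3 day libraries, replicates 1 and 6. The difference of means from sham was -0.23 percentage points at 1 day, 0.27 at 3 days and -1.62 at 12 weeks. Each was less than 1 SD of the libraries. Leaving out 1 library at a time moved the 1 day difference between -0.80 and 0.24 points and the 3 day difference between -1.01 (without 3 day replicate 1) and 1.24 (without 3 day replicate 6). The 12 week difference moved between -2.46 points, which is -1.35 SD and was reached without 12 week replicate 3, and -1.03 points, without 12 week replicate 1. Without the 3 libraries least like their own groups it was -1.94 points, or -1.10 SD. Among libraries of 25000000 to 40000000 counts the groups overlapped less: the share was 27.0% to 28.7% in 3 sham libraries, 22.0% to 25.3% in 3 libraries at 3 days and 23.2% to 29.2% in 4 libraries at 12 weeks. In that window the sham libraries lay above the 3 day libraries, and the part of depth in this was not tested. The window was not planned. It left out 3 day replicates 1 and 2, the highest of their group (33.2% and 29.9%), and sham replicates 1 to 3, the lowest of theirs. A share of counts is relative to all other RNA in the table, and in tissue pieces fewer cells of a type cannot be told apart from less RNA per cell.

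**Figure D1:**
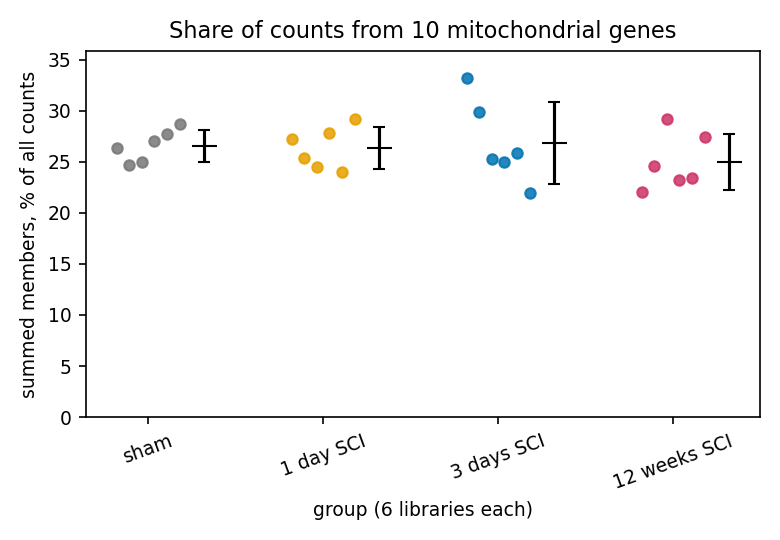
Summed counts of the 10 mitochondrially encoded genes as a percentage of all counts (y axis) in each library, by group (x axis, 6 libraries each). Points are libraries, and the black bar and whiskers are the mean and SD. The groups overlap, with means between 25.0% and 26.8%.

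At 1 and 3 days after transection, none of the 10 genes passed the test against sham. At 1 day the log2 fold changes ran from -0.19 (Mt-nd1) to 0.13 (Mt-co2), with a median of 0.047 beside 0.00050 for all genes, and the lowest adjusted p was 0.398 (edgeR quasi-likelihood test). That was 0 of 10 genes, where 24% of the 15065 genes tested were called at an adjusted p under 0.05. At 3 days they ran from -0.20 (Mt-nd6) to 0.094 (Mt-co1), with a median of -0.034 beside 0.0076 for all genes, and the lowest adjusted p was 0.457. Again 0 of 10 genes were called, where 17.5% of all genes were. In both comparisons 0 of the 10 had an unadjusted p under 0.05, and DESeq2 and limma-voom also called 0. The 95% intervals of the 10 genes reached from 0.702-fold to 1.43-fold at 1 day and from 0.678-fold to 1.33-fold at 3 days, so changes of that size were not resolved. The median SE on the log2 scale was 0.15 for the 10 genes and 0.12 for all genes in each comparison. A change of a given size was therefore less readily called in the 10 genes than in a gene of median SE. At 3 days against 1 day 0 of 10 were called (2.74% of all genes), with 0 at an unadjusted p under 0.05 and 0 by DESeq2 or limma-voom.

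At 12 weeks 1 of the 10 genes, Mt-nd6, was higher than in sham, where 22.1% of all genes were called. The median over the 10 was 0.033 on the log2 scale beside 0.0074 for all genes, and 5 of them lay above 0. Against 1 day 1 of 10 was called, again Mt-nd6 (33.9% of all genes). Against 3 days 2 of 10 were called, Mt-nd6 higher and Mt-co1 lower (31.3% of all genes). All 3 comparisons use the same 12 week libraries, and the 3 comparisons with sham use the same sham libraries.

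**Figure D2:**
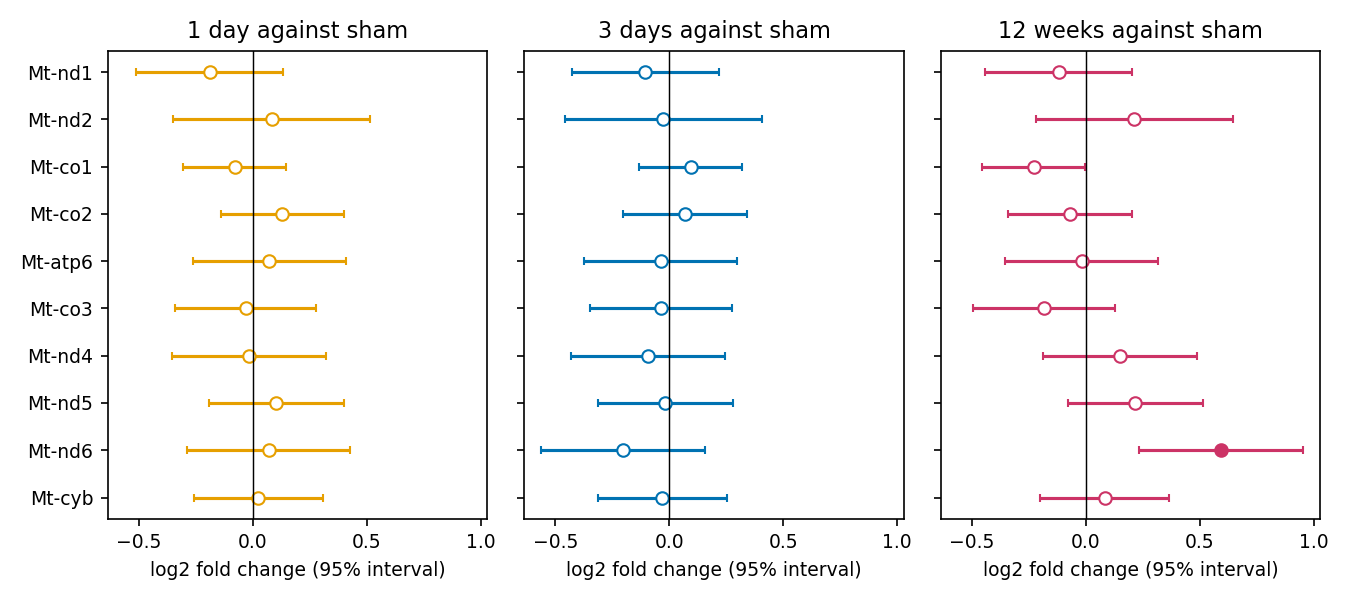
Log2 fold change against sham (x axis) of each of the 10 genes (y axis) at 1 day, 3 days and 12 weeks, from the edgeR fit to all 24 libraries. Whiskers are 95% intervals, and a filled circle marks an adjusted p under 0.05. Only Mt-nd6 at 12 weeks is filled, at 0.59.

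Mt-nd6 encodes a membrane subunit of complex I, the NADH dehydrogenase that feeds electrons into the chain. Its CPM, the count scaled to the library's TMM-adjusted total, had a lowest, median and highest value of 657, 804 and 1303 in sham (mean 891 ± 258, SD, n = 6). They were 731, 919 and 1152 at 1 day (935 ± 135, n = 6) and 567, 781 and 1023 at 3 days (774 ± 190, n = 6). They were 1098, 1241 and 1832 at 12 weeks (1344 ± 281, n = 6). Every 12 week library was above every 3 day library, whereas the 12 week group overlapped sham and 1 day at its lower end. How many of all genes had groups apart in this way was not counted. The highest sham library was replicate 6 and the highest 12 week library was replicate 3. The order of the means was 3 days, sham, 1 day and 12 weeks, and the first 3 did not differ by the test. Sham replicates 1 to 3 held 55384996 to 70340174 counts and had 657 to 772 CPM. Sham replicates 4 to 6 held 27097306 to 37502147 counts and had 836 to 1303 CPM. The 12 week libraries held 15002476 to 44709028 counts and the 1 day libraries 41326217 to 62308617. The part of depth in the differences of Mt-nd6 was not tested.

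The 12 week level of Mt-nd6 was 1.51-fold that of sham (log2 0.59, SE 0.17, 95% interval 0.23 to 0.95, edgeR adjusted p = 0.0150). It was 1.74-fold the 3 day level (log2 0.80, SE 0.17, edgeR adjusted p = 0.00112). It was 1.44-fold the 1 day level (log2 0.52, SE 0.17, edgeR adjusted p = 0.0209). This comparison lies within a run of library numbers, in which each group still holds its own block. The first 2 were called in 21 of 21 other settings each. The difference from 1 day was called in 18 of 21. Its adjusted p was 0.0662 without 12 week replicate 3, 0.0532 without 1 day replicate 3, and 0.0607 without the 3 libraries least like their own groups. The libraries were strand-specific, but the strand setting of the authors' counting is not given in the sources used here. Reads of Mt-nd6 therefore cannot be told apart from reads of the opposite strand at the same place.

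Mt-co1 encodes the catalytic subunit of cytochrome c oxidase, which passes electrons to oxygen. Its lowest, median and highest CPM were 119220, 130219.5 and 135772 in sham (128797 ± 6337, SD, n = 6). They were 110928, 121336 and 133574 at 1 day (121895 ± 10413, n = 6) and 113137, 133976 and 172592 at 3 days (137434 ± 20452, n = 6). They were 90571, 110047.5 and 135914 at 12 weeks (109870.4 ± 17979, n = 6). Of the 12 week libraries, 3 lay below every library of the other groups, and the rest overlapped them. Mt-co1 was 0.799-fold as high at 12 weeks as at 3 days (log2 -0.32, SE 0.11, edgeR adjusted p = 0.0248). That call was lost when 12 week replicate 1, 2 or 5, or 3 day replicate 1, was left out, with adjusted p-values of 0.0623, 0.0504, 0.0602 and 0.0742, and when only the 2 groups were fitted (0.143). Against sham the difference was -0.23 at 12 weeks (unadjusted p = 0.0441, edgeR adjusted p = 0.130), and it did not pass. It passed without 12 week replicate 3 (log2 -0.30, adjusted p = 0.0456) and with total counts in place of TMM factors (log2 -0.22, adjusted p = 0.0407).

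**Figure D3:**
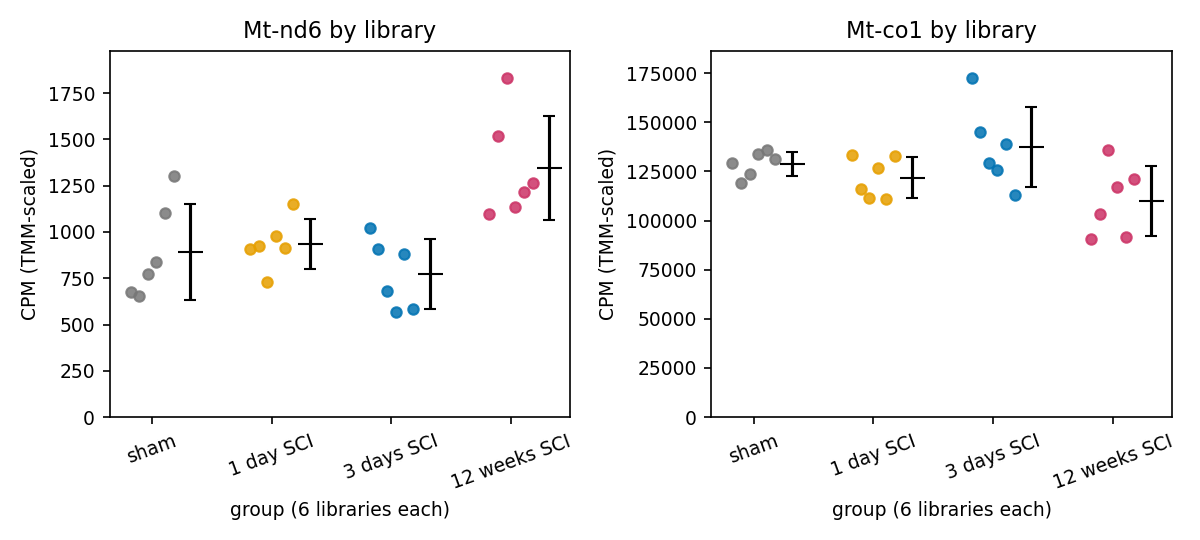
CPM scaled by TMM factors (y axes) of Mt-nd6 and Mt-co1 in each library, by group (x axis, 6 libraries each). Points are libraries, and bars and whiskers are the mean and SD. Mt-nd6 has its highest mean at 12 weeks (1344 CPM) and Mt-co1 its lowest (109870.4 CPM).

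The other 8 genes did not pass in any of the 6 comparisons. Of the complex I subunits, Mt-nd5 differed most from sham at 12 weeks, by 0.22 on the log2 scale (SE 0.14, edgeR adjusted p = 0.293). Its median CPM was 12902 in sham, 13804 at 1 day, 12395 at 3 days and 14599 at 12 weeks, and the groups overlapped. Mt-nd5 passed only against 3 days when 3 day replicate 1 was left out (log2 0.36, adjusted p = 0.0466). For Mt-nd1, Mt-nd2 and Mt-nd4, the means ran from 12374 to 14103, from 11727 to 13844 and from 11632 to 13794 CPM over the groups. Mt-cyb, cytochrome b of complex III, had means of 18696 in sham, 19011 at 1 day, 18290 at 3 days and 19800 at 12 weeks. Each of these differences was smaller than the SD of the 12 week group.

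Mt-co2 and Mt-co3, the other cytochrome c oxidase subunits, had means between 14058 and 16158 CPM and between 30374 and 34480 CPM. Both had their lowest mean at 12 weeks, at -0.071 and -0.18 on the log2 scale from sham (edgeR adjusted p = 0.745 and 0.408). Mt-atp6, a membrane subunit of ATP synthase, had means between 17797 and 19183 CPM. Its 12 week difference from sham was -0.018 (SE 0.16, edgeR adjusted p = 0.953).

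The genes were then compared with each other inside each library, which removes how much mitochondrial RNA the library held. Each library's size was set to the summed count of the 10 genes, edgeR was run on the whole table, and p-values were adjusted over all 15065 genes. This fit was not planned, and it was chosen after other tests of the same genes had been seen. In this closed composition a lower share of one gene raises the shares of the rest, and Mt-co1 alone made up 40.9% to 54.6% of the sum. With this scaling the median log2 fold change of all genes was 0.13 at 12 weeks against sham and 0.12 against 3 days. The share of all genes called fell, from 22.1% to 8.92% at 12 weeks against sham and from 31.3% to 14.9% against 3 days. The 10 genes are part of the sum and the other genes are not. The shares of all genes called are therefore not a like-for-like background for the 10 genes in this fit.

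Mt-nd6 took a larger share of the mitochondrial counts at 12 weeks than in every other group. Its lowest, median and highest percentages of the summed count were 0.260%, 0.305% and 0.444% in sham and 0.310%, 0.357% and 0.388% at 1 day. They were 0.237%, 0.279% and 0.326% at 3 days and 0.470%, 0.539% and 0.640% at 12 weeks. The 12 week libraries did not overlap any other group. Relative to the sum, Mt-nd6 was 1.64-fold its sham level (log2 0.71, SE 0.13, edgeR adjusted p = 0.000275). It was 1.52-fold its 1 day level (log2 0.60, SE 0.13, edgeR adjusted p = 0.00103) and 1.91-fold its 3 day level (log2 0.93, SE 0.13, edgeR adjusted p = 8.31e-06). These 3 differences were called in 17 of 17 other settings each. Among libraries of 25000000 to 40000000 counts, the range was 0.298% to 0.444% in 3 sham libraries, 0.237% to 0.281% in 3 libraries at 3 days and 0.482% to 0.640% in 4 libraries at 12 weeks. In the same window Mt-co1 made up 44.8% to 48.1% of the sum in sham, 52.5% to 54.6% at 3 days and 40.9% to 49.6% at 12 weeks. Mt-nd5 made up 4.96% to 5.77% in sham, 4.61% to 4.72% at 3 days and 5.82% to 6.51% at 12 weeks. For both genes the sham and 3 day libraries of the window did not overlap, Mt-co1 being higher at 3 days and Mt-nd5 lower, whereas over all libraries these groups overlapped. The remaining genes were not examined in this window, so these cases cannot be set beside a rate. No 1 day library had a depth in that window.

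In the comparison of 12 weeks with sham, 2 of 10 genes were called relative to the sum, both higher (8.92% of all genes). Beside Mt-nd6 this was Mt-nd5, a subunit of the proton-pumping membrane arm of complex I (log2 0.33, SE 0.085, edgeR adjusted p = 0.0112). Its percentages of the sum were 4.44%, 4.83% and 5.77% in sham and 5.82%, 6.28% and 6.51% at 12 weeks, so the groups did not overlap. The Mt-nd5 call held in 16 of 17 other settings, with an adjusted p of 0.0902 without the filter on low counts. Mt-nd2 and Mt-nd4 differed by 0.30 and 0.26 (edgeR adjusted p = 0.108 and 0.0926) and did not pass. Mt-nd2 did pass when 12 week replicate 4 was left out (log2 0.38, adjusted p = 0.0420). Mt-nd1, also of complex I, differed by -0.015.

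Against 1 day, Mt-nd6 was the 1 of 10 called relative to the sum (16% of all genes). Against 3 days 5 of 10 were called, all higher at 12 weeks (14.9% of all genes). They were Mt-nd2 (log2 0.38, edgeR adjusted p = 0.0296), Mt-nd4 (0.39, 0.00559), Mt-nd5 (0.37, 0.00273), Mt-nd6 and Mt-cyb (0.25, 0.0314). The calls of Mt-nd2 and Mt-cyb held in 9 and 8 of 17 other settings. Mt-nd2 lost its call without 12 week replicate 2 or 3 or 3 day replicate 4 or 6, and Mt-cyb without 12 week replicate 1 or 5 or 3 day replicate 4 or 5. Adjusted p-values were then between 0.0529 and 0.0780. Both also lost it without the filter on low counts (0.0787 and 0.178), with only the 2 groups fitted (0.115 and 0.220) and without the 3 libraries of low correlation (0.109 and 0.127), and Mt-cyb with limma-voom (0.0567). Mt-nd4 and Mt-nd5 lost their calls with only the 2 groups fitted (0.0528 and 0.0533). Mt-co1 was lower by 0.20 relative to the sum (edgeR adjusted p = 0.0531), and it passed without 12 week replicate 4 (0.0288) or 3 day replicate 1 (0.0297).

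Relative to the sum, 0 of 10 genes were called at 1 day against sham (8.26% of all genes), at 3 days against sham (5.04%) or at 3 days against 1 day (0%). The edgeR fit gave 0, 0 and 3 genes with an unadjusted p under 0.05 in these comparisons, and limma-voom called 0 in each. The 3 were Mt-nd5, Mt-nd6 and Mt-atp6, all with lower fitted values at 3 days than at 1 day. For Mt-nd5 the percentages of the sum did not overlap, the highest being 4.97% at 3 days and the lowest 5.19% at 1 day.

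**Figure D4:**
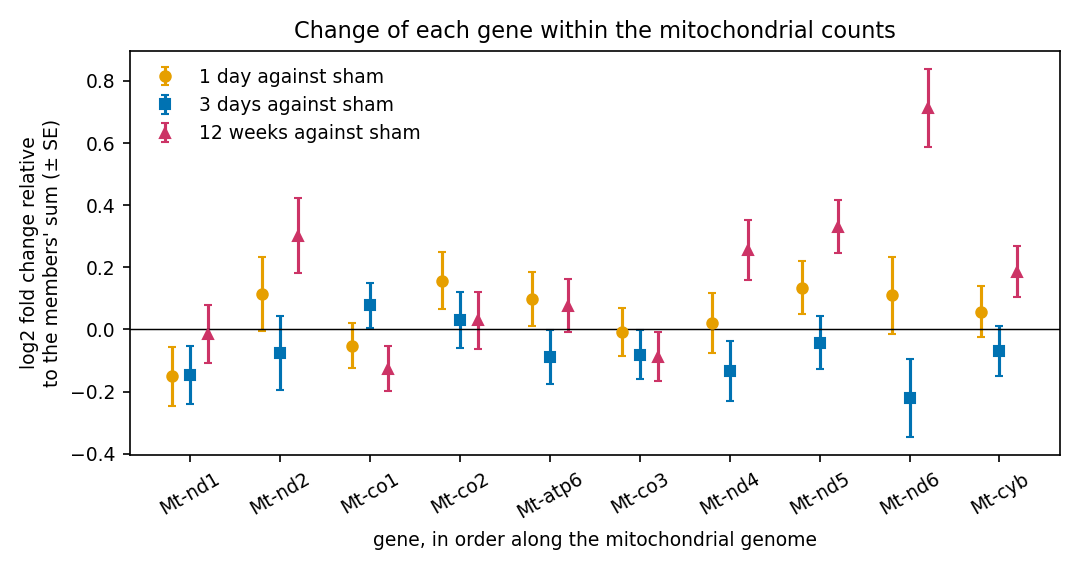
Log2 fold change against sham of each gene relative to the summed count of the 10 genes (y axis), with the genes in their order along the mitochondrial genome (x axis). Points are edgeR estimates and whiskers are SE. At 12 weeks Mt-nd6 stands at 0.71 and Mt-nd5 at 0.33, the 2 values that passed.

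By complex, the 5 complex I genes made up 19.6% ± 2.04 of the mitochondrial counts in sham and 22.9% ± 1.72 at 12 weeks (SD, n = 6 each), with 20.0% at 1 day and 18.2% at 3 days. The 3 complex IV genes made up 66.6% ± 2.36 in sham and 61.9% ± 2.58 at 12 weeks, with 65.5% at 1 day and 68.7% at 3 days. Mt-cyb made up 6.98%, 7.26%, 6.65% and 7.94% in sham and at 1 day, 3 days and 12 weeks, and Mt-atp6 6.82%, 7.29%, 6.41% and 7.19%. These shares are not corrected for gene length, so they do not rank the genes by abundance. The totals by complex were not tested, and for complex I sham replicate 6 (22.8%) was above 12 week replicate 1 (22.7%). Genes of a complex did not move alike relative to the sum at 12 weeks against sham. The log2 change was -0.015 for Mt-nd1 and 0.71 for Mt-nd6, and -0.13 for Mt-co1 and 0.029 for Mt-co2.

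The genes varied together from library to library. Over the 24 libraries the 45 pairs of genes had a median Pearson r of 0.764 for log2 CPM. The highest was 0.945, between Mt-nd4 and Mt-cyb, and the lowest was -0.067, between Mt-nd6 and Mt-co1. After the group means were subtracted, the 45 values lay between 0.653 and 0.964 with a median of 0.869. These values are a description: all genes of a library share its depth, its scaling factor and its RNA.

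**Figure D5:**
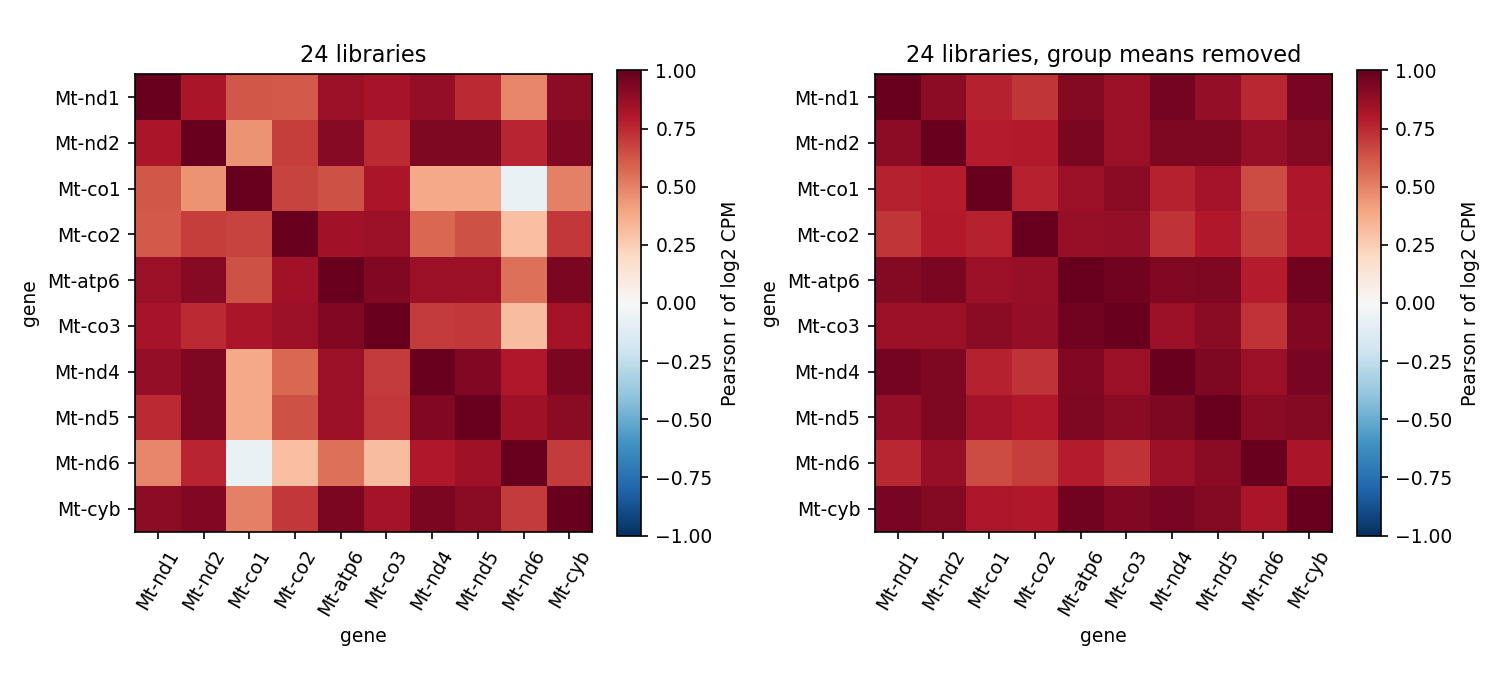
Pearson r of log2 CPM between each pair of the 10 genes (both axes) over 24 libraries, on the left as measured and on the right after subtraction of the group means. Colour gives r from -1 to 1. On the left Mt-nd6 and Mt-co1 have the lowest value (-0.067), and on the right all pairs are at or above 0.653.

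Some libraries were at the end of their group for most of the genes. The 12 week replicate 3 and the 3 day replicate 1 were highest of their group for 10 of 10 genes. The 3 day replicate 6 was lowest of its group for 8 genes, sham replicate 6 was highest for 8 and 1 day replicate 6 for 7. The within-group SD of log2 CPM had a median of 0.27 over the 10 genes, beside 0.21 over all genes tested and 0.13 over the 1507 genes in the top 10% by level. The median for the 10 genes was thus above both of these medians.

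Among 11504 other genes, the 2 whose log2 CPM followed the mean of the 10 most closely were ENSRNOG00000033299 (r = 0.829) and ENSRNOG00000031053 (r = 0.802). They were the only 2 with r over 0.8, and the median r was 0.0047. The IDs carry no names here, so whether these 2 are themselves mitochondrially encoded was not determined. ENSRNOG00000033299 had 528 ± 99.6 CPM in sham and 755 ± 275 at 12 weeks (SD, n = 6). ENSRNOG00000031053 had 889 ± 164 CPM in sham and 1223 ± 241 at 12 weeks. Both had their highest mean at 12 weeks and their lowest at 3 days. Mt-nd2, Mt-nd4, Mt-nd5, Mt-nd6 and Mt-cyb also had their highest and lowest means there.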

How the data were processed

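The authors deposited raw counts per gene ID for 24 libraries in a table named for protein-coding genes. Per the labels' protocols the libraries were rRNA-depleted, strand-specific and paired-end. The submitters' processing notes name FastQC 0.12.1, STAR 2.7.11a, featureCounts 2.0.6 and the build mRatBN7.2. The annotation release, strand setting and handling of reads with several matches were each not given in the sources used here, so reads shared with nuclear copies of mitochondrial sequence could be counted either way. Of 23098 IDs, 781 stood on more than 1 line, and none of these was among the 10 genes. Among counts from 1 to 200, 58.1% to 61.1% per library were even.

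Counts were fitted in R 4.3.3 with the quasi-likelihood test of edgeR 4.0.16 (TMM factors, filterByExpr by group, 4 groups, 20 residual degrees of freedom). P-values were adjusted by Benjamini-Hochberg over 15065 genes and called under 0.05. DESeq2 1.42.0, limma-voom 3.58.1, other scalings, no filter, the 2 groups alone, a replicate block and leaving out each library were the alternatives. The edgeR script was tested on simulated data.

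The genes and comparisons were chosen with earlier results of these data known. All 10 genes are named, with the 2 other genes most correlated with their mean. Exact permutation tests of the summed share and of each gene's ratio to the other 9 had been planned. They were run and their results seen, and they were then withdrawn, because they give p-values over genes chosen with results known. The fit relative to the summed count, which replaced the ratio tests, also gives p-values for these genes, adjusted over all genes tested. The same limit therefore holds for it. The withdrawn ratio tests called genes at 3 days against 1 day, where the fit relative to the summed count, chosen after they were seen, called none. They also called more genes than that fit at 12 weeks against sham and against 1 day, and the same number elsewhere. Leaving out the 3 libraries with the lowest rank correlation with their own group was also added after seeing the data.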

Additional observations from a re-analysis of the deposited data

Results flagged for a closer look

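Of 84 groups of 6 values examined for a library far from the rest of its group, 5 had one, and chance alone gives about 5% of groups. For Mt-co2, CPM was 19450 in 1 day replicate 6 and 19361 in 12 week replicate 3, each far above the other 5 libraries. On the log2 ratio of a gene's count to the summed count of the other 9, Mt-nd2 was at -4.98 in 3 day replicate 6, Mt-nd4 at -4.32 in 12 week replicate 4 and Mt-co2 at -4.33 in 3 day replicate 3. Each of these was below the rest of its group.

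Differences between injured groups that passed the edgeR test were, for Mt-nd6, 0.52 on the log2 scale at 12 weeks against 1 day and 0.80 against 3 days. For Mt-co1 the difference was -0.32 against 3 days. Relative to the summed count, Mt-nd6 differed by 0.60 against 1 day. Against 3 days the differences relative to the sum were 0.38 for Mt-nd2, 0.39 for Mt-nd4, 0.37 for Mt-nd5, 0.93 for Mt-nd6 and 0.25 for Mt-cyb. The effects against sham at 2 times share the sham libraries, so each of these is the direct comparison of the 2 injured groups.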

How the results depend on the processing

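The counts of 0 at 1 day and 3 days against sham and at 3 days against 1 day stayed at 0 in every setting run, in both fits. The difference in summed share shifted by less than 1 SD in every setting run. The replicate block was not applied to the share, so that setting repeats the main values and is no check. The difference passed 1 SD in size without 12 week replicate 3 against sham (-2.46 points) and against 1 day (-2.23 points). It also did so without the libraries of low correlation against sham (-1.94 points). Its sign changed when single libraries were left out at 1 day against sham (-0.80 to 0.24 points), 3 days against sham (-1.01 to 1.24) and 3 days against 1 day (-0.78 to 1.47). No called difference changed direction. At 12 weeks against sham 2 genes were called with total counts in place of TMM factors. Leaving out 1 library at a time gave 1 to 2, and Mt-co1 joined Mt-nd6 when 12 week replicate 3 was left out. In the comparison with 1 day leaving out 1 library gave 0 to 1, with 0 without 12 week replicate 3 or 1 day replicate 3, and 0 were called without the 3 libraries of low correlation. In the comparison with 3 days 1 gene was called when only the 2 groups were fitted, and leaving out 1 library gave 1 to 2.

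Relative to the summed count at 12 weeks against sham, 1 gene was called without the filter on low counts, and leaving out 1 library gave 2 to 3. Against 3 days, 3 were called without the filter, 1 with only the 2 groups fitted and 3 without the libraries of low correlation. Leaving out 1 library gave 3 to 6, with 3 when 3 day replicate 4 was left out.

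With the replicate number as a block, 1 gene was called at 12 weeks against 3 days, and 3 relative to the sum. Mt-co1 lost its call there (adjusted p = 0.0519), as did Mt-nd2 and Mt-cyb relative to the sum (0.0651 and 0.0871). Deviations of same-numbered libraries correlated between -0.178 and 0.151, and at most 2 of 6 libraries in a comparison correlated best with their own number, so the number was not taken as pairing the libraries.

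In 103 settings of 35 uncalled differences the sign changed. None of these had an adjusted p under 0.463, and none was larger than 0.14 on the log2 scale. Leaving out 1 library moved the log2 fold change at 1 day against sham from -0.0088 to 0.18 for Mt-nd2, from -0.066 to 0.071 for Mt-nd4, from -0.0060 to 0.078 for Mt-cyb and from -0.083 to 0.020 for Mt-co3. At 3 days against sham it ran from -0.19 to 0.10 for Mt-nd2, from -0.24 to 0.0066 for Mt-nd4, from -0.14 to 0.067 for Mt-nd5 and from -0.17 to 0.049 for Mt-cyb. There it also ran from -0.059 to 0.14 for Mt-co2, from -0.19 to 0.040 for Mt-co3 and from -0.19 to 0.069 for Mt-atp6. At 12 weeks against sham it ran from -0.028 to 0.13 for Mt-cyb and from -0.15 to 0.036 for Mt-atp6. At 3 days against 1 day it ran from -0.074 to 0.18 for Mt-nd1, from -0.28 to 0.015 for Mt-nd2, from -0.22 to 0.016 for Mt-nd4 and from -0.19 to 0.019 for Mt-cyb. There it also ran from -0.19 to 0.0047 for Mt-co2 and from -0.16 to 0.065 for Mt-co3. For 12 weeks against 1 day it ran from -0.046 to 0.11 for Mt-nd1, from -0.066 to 0.22 for Mt-nd2 and from -0.052 to 0.099 for Mt-cyb. For 12 weeks against 3 days it ran from -0.13 to 0.14 for Mt-nd1, from -0.27 to 0.0082 for Mt-co3 and from -0.11 to 0.18 for Mt-atp6.

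The change relative to the sum likewise ran from -0.028 to 0.069 for Mt-nd4 and from -0.024 to 0.012 for Mt-co3 at 1 day against sham. At 3 days against sham it ran from -0.12 to 0.00063 for Mt-nd2 and from -0.072 to 0.0061 for Mt-nd5. It ran from -0.049 to 0.020 for Mt-nd1 at 12 weeks against sham, from -0.032 to 0.047 for Mt-nd1 at 3 days against 1 day and from -0.043 to 0.017 for Mt-atp6 at 12 weeks against 1 day. For 12 weeks against 3 days it ran from -0.046 to 0.038 for Mt-co2 and from -0.026 to 0.026 for Mt-co3.

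With total counts Mt-nd4 was at 0.0016 at 1 day against sham, and Mt-nd1 was at 0.014 at 12 weeks against 3 days, where limma-voom gave 0.021. Without the libraries of low correlation Mt-cyb was at -0.0089 at 12 weeks against sham, and Mt-co2 at -0.0098 relative to the sum. Mt-co3 was then at 0.0089 at 3 days against 1 day. Against 1 day at 12 weeks Mt-nd1, Mt-nd2 and Mt-cyb were at -0.012, -0.025 and -0.033, and at 12 weeks against 3 days Mt-atp6 was at -0.079. The cause was not tested.

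Over single genes and comparisons, 9 calls of a log2 fold change were lost and 3 gained, and 20 were lost and 3 gained relative to the sum. The log2 ratio of a gene moved by over 1 SD in 32 settings and by less in 868. In 21 of the 32 the ratio was taken to all genes outside the 10, a different quantity from the ratio to the other 9. The rest left out 12 week replicate 4 (9) or sham replicate 6 (2). Of the 868, 60 were the replicate block, which was not applied to these ratios and so repeats the main values. The lowest count of any of the 10 genes was 14096, which bears on counting error only.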
